A study of Mus musculus with 4 samples.

Results

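The cells described here are islet cells with a high share of the somatostatin transcript Sst, above those of glucagon and pancreatic polypeptide, the δ cells by transcript share. They were selected on measured values. A cell was taken when Sst made up at least 2% of its transcripts and lay above both Gcg and Ppy, and when Ins1 and Ins2 together stayed under 30%. Of 7263 cells kept from 3 libraries, 208 met this rule (2.86%), with 88 in mutant 1, 79 in mutant 2 and 41 in control 2. Because Sst, Gcg, Ppy, Ins1 and Ins2 chose the cells, these 5 genes are described and were not tested. The other hormone types were chosen in the same way, with 631 α cells led by Gcg, 138 PP cells led by Ppy and 4897 β cells with at least 30% insulin transcripts.

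The libraries are droplet single-cell RNA-Seq of dissociated islets, where transcripts carry a unique molecular identifier (UMI) and are counted by it. The mutant mice were homozygous for the Myt3IM allele, a 12-bp insertion made by CRISPR-Cas9 in an exon of Myt3 (listed as St18) that disrupts an upstream open reading frame. It is carried by every cell of the mouse. The controls were wild-type mice of the same outcrossed line. The labels give adult mice on a normal diet and the PIPseq platform, while the methods of the study give a high-fat diet and InDrop-Seq, and each library holds pooled islets of male and female mice. The labels name 2 libraries a genotype. Control 1 was not analysed here for expression, so the genotypes were compared without a test. The batch entry of control 2 differs from that of the mutant libraries, and depth differed with it, so genotype, batch entry and depth cannot be told apart. In the order mutant 1, mutant 2 and control 2, the δ cells gave totals of 127284, 214140 and 221247 UMIs and medians per cell of 1190.5, 2322 and 4987. Of the 4 libraries, no pair shared a barcode.

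Islet δ cells release somatostatin, a peptide that acts on neighbouring α and β cells through inhibitory receptors and so restrains both glucagon and insulin secretion. They are electrically excitable cells with ATP-sensitive potassium channels and voltage-gated calcium channels, as β cells are, and they respond to glucose and to ghrelin. Hhex is a homeobox factor needed to keep δ cell identity, and Rbp4, a retinol carrier, is a common δ cell marker in mice.

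Sst (ENSMUSG00000004366) lies on the minus strand of chromosome 16 at 23889573 to 23890958 of GRCm38 in the GENCODE annotation. Its promoter is shown for the cAMP response element, the site through which cAMP signalling drives Sst, since Sst defines these cells and cAMP genes are described below. The 30 bases come from the RefSeq promoter table (GRCm38.p6), chr16:23890874-23890903, read on the minus strand, and the capitals mark the element.
Sst promoter: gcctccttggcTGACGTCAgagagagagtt
The element begins 48 and ends 41 bases before the RefSeq transcript start. The GENCODE gene begins further upstream, at 23890958, so the same bases lie within its bounds. Its exon records were not read. The palindrome TGACGTCA, which reads the same on both strands, was found in 588 of 32851 RefSeq promoters of 300 bases (1.79%). Of the 10 genes highest in δ cells against the other endocrine types, 6 had a promoter in that table, and none of these windows held the palindrome.

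The label was first set against 6 markers of δ cells, Sst, Rbp4, Hhex, Ghsr, Casr and Sstr3. Sst, the gene of the rule, made up a median of 3.92%, 4.67% and 9.85% of δ cell UMIs in mutant 1, mutant 2 and control 2. Rbp4 was not part of the rule and reached 636, 682 and 1297 CPM in δ cells of mutant 1, mutant 2 and control 2 (CPM, a gene's UMIs scaled to equal totals of all UMIs in each sum), against 8.85, 8.96 and 4.05 in β cells. The δ and β values of Rbp4 were far apart in each library. Hhex reached 110.0, 107 and 149 CPM in δ cells and 0 to 10.4 in the β, α and PP cells. Ghsr, the ghrelin receptor, gave 2, 3 and 0 UMIs in the δ cells. Casr, the calcium-sensing receptor, stood at 39.3, 46.7 and 36.2 CPM in δ cells and at 29.9 to 69.9 in α and PP cells. Sstr3, a somatostatin receptor, stood at 70.7, 84.1 and 108 in δ cells and at 58.4 to 67.6 in β cells. Beyond Sst, which chose the cells, Rbp4 and Hhex were the markers higher in δ cells, Ghsr gave a few UMIs, and neither Casr nor Sstr3 passed the test against the mean of the other endocrine types described below.

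**Figure D1:**
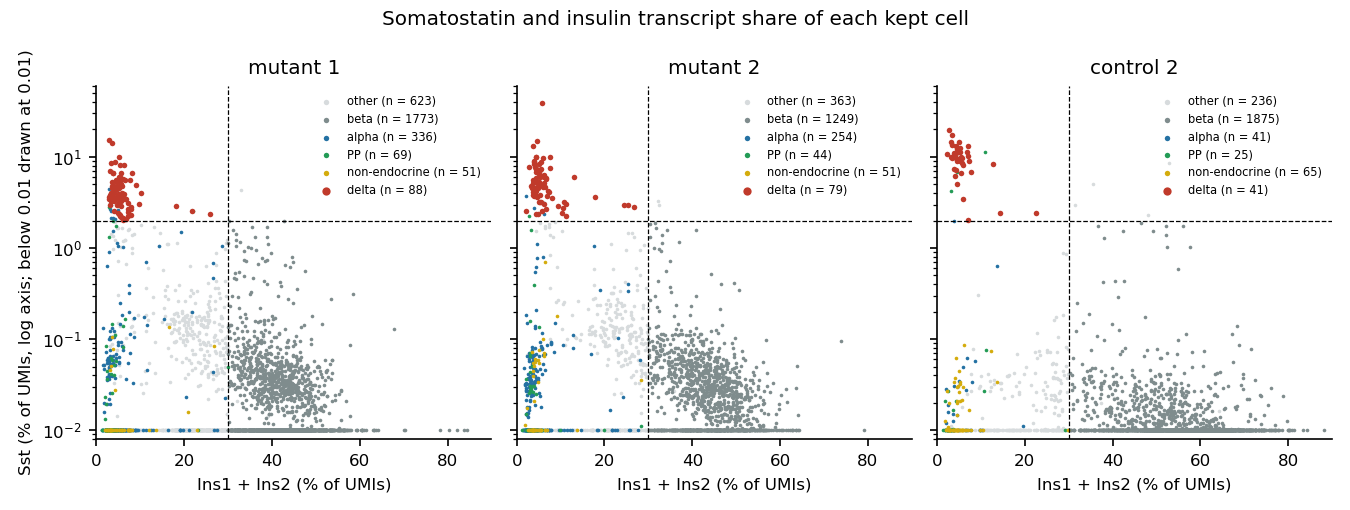
Each point is a kept cell of mutant 1, mutant 2 or control 2, plotted by its insulin share and its Sst share of UMIs (%, the Sst axis is a log axis with values below 0.01 drawn at 0.01), and dashed lines mark 2% Sst and 30% insulin. The δ cells of control 2 lie higher on the Sst axis, with a median of 9.85%, than those of mutant 1 and mutant 2, with 3.92% and 4.67%.

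The cells near the 2% limit differed between libraries. Between 2% and 3% Sst lay 20, 12 and 3 δ cells in the order mutant 1, mutant 2, control 2, and just outside, between 1% and 2%, lay 22, 15 and 0 cells. Over the 3 libraries, Rbp4 stood at 123 CPM in the cells just outside, 493 in those at 2 to 3%, 571 at 3 to 5% and 1197 above 5%. Rbp4 was therefore more abundant in each higher range of Sst. Hhex did not follow that order, with 123 CPM just outside and 61.6, 103 and 153 in the ranges inside, from 8, 6, 15 and 49 UMIs.

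Transcripts of other hormones were present in these cells. The insulin transcripts had a median share of 5.10%, 5.07% and 4.81% in δ cells of mutant 1, mutant 2 and control 2. In the non-endocrine cells of the same libraries, which were chosen for little hormone transcript, insulin took a median of 4.48%, 4.08% and 4.62%, where cells had 1396, 1848 and 4760 UMIs at the median beside 1190.5, 2322 and 4987 in δ cells. Both groups were limited in insulin by the rules that chose them, so these values are a description. Insulin lay above Sst in 53 of 88, 39 of 79 and 6 of 41 δ cells, and over 10% insulin was held by 4, 10 and 3. Ppy, the pancreatic polypeptide, passed 2% of UMIs in 15 of 41 δ cells of control 2 (36.6%, 95% exact binomial interval 22.1 to 53.1%), in 1 of 88 cells of mutant 1 and in 3 of 79 of mutant 2. Its level was 4942, 5436 and 19923 CPM in δ cells and 487, 582 and 144 in non-endocrine cells, and the rules limited Ppy in both groups. Gcg stood at 2561, 2671 and 285 CPM in δ cells and at 1864, 2569 and 237 in non-endocrine cells.

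UMIs were then summed per library and cell type, the 5 rule genes were taken out, and δ sums were compared with the β, α and PP sums of the same libraries by edgeR's quasi-likelihood test, with the library as a block and Benjamini-Hochberg adjustment over 4965 genes. Against β cells, 639 genes were higher in δ cells (12.9% of those tested) and 699 lower (14.1%). Against α cells, 374 were higher (7.53%) and 380 lower (7.65%), and against PP cells 249 were higher (5.02%) and 190 lower (3.83%). Against the mean of the other 3 types, 386 were higher (7.77%) and 281 lower (5.66%). The 1338, 754, 439 and 667 genes called in these comparisons became 926, 477, 230 and 416 without mutant 1, 794, 356, 183 and 347 without mutant 2, and 1672, 945, 520 and 780 without control 2. The genes tested changed as well, from 4965 to 5220, 5142 and 7227 in that order, so these counts are not on one base. Of the calls without control 2, 1109, 647, 345 and 532 were also called with all 3 libraries. With the library as a block, the p-values measure the spread of the differences between cell types across these 3 libraries. Level differences between libraries are taken up by the block, and the libraries differ in genotype.

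The scale matters for these folds, because insulin transcripts made up a median of 41.9%, 43.8% and 55.9% of UMIs in β cells of mutant 1, mutant 2 and control 2. With all UMIs as library size, the median of the 4965 genes lay 0.92 higher in δ than in β cells on the log2 scale, 0.32 higher than in α and 0.35 higher than in PP cells, and 0.52 higher than in their mean. The share of called genes that were higher in δ cells then moved from 47.8% to 96.2% against β, from 49.6% to 81.0% against α, from 56.7% to 87.2% against PP cells and from 57.9% to 95.7% against the mean. Fold changes below are log2 values relative to this shift (TMM scaling without the rule genes), whereas levels are CPM of all UMIs.

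The following genes were chosen among those that passed the test with 1 direction in the 3 libraries, by the size of their fold in δ cells against the other endocrine types, and no function was tested for enrichment among them. Cd24a, a surface glycoprotein, stood at 786, 621 and 642 CPM in δ cells of mutant 1, mutant 2 and control 2, against 15.4 to 51.3 in the β, α and PP cells. It was 3.80 higher on the log2 scale than the mean of these types (SE 0.16, adjusted p = 9.1e-15). The non-endocrine cells held as much Cd24a, with 725, 784 and 748 CPM. Kcnd2, a subunit of A-type potassium channels, stood at 393, 416 and 425 in δ cells and at 2.78 to 30.9 in the other endocrine sums, and was 4.60 higher than the mean (SE 0.22, adjusted p = 9.9e-14). Ptprz1, a receptor tyrosine phosphatase known from glia, stood at 228, 262 and 280.2 in δ cells and was 4.50 higher (SE 0.27, adjusted p = 4.7e-12). The δ values of both genes lay above each β, α and PP value. Ly6h, a neuronal membrane protein, was 4.64 higher (SE 0.39, adjusted p = 2.0e-09), from 165, 233 and 181 CPM in δ cells and 0, 0 and 0 in non-endocrine cells. Kcnc2, a fast voltage-gated potassium channel, was 3.90 higher (SE 0.31, adjusted p = 9.9e-10). Spock3, a matrix proteoglycan, was 3.98 higher (SE 0.39, adjusted p = 3.4e-08), and Bmp3, a secreted growth factor, 3.88 higher (SE 0.64, adjusted p = 8.2e-05), with 2.98 without mutant 2 and 6.25 without control 2. Each of these 7 genes kept its call against the mean when any one library was left out.

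Trabd2b, a membrane metalloprotease that acts on Wnt proteins, gave 29 UMIs in δ cells and 0 in PP cells. This is at least 8.44-fold higher per UMI without the rule genes, with a floor of 3 UMIs over the PP cells of the 3 libraries, and with the counting error of both types the 95% interval of the ratio begins at 6.44. Against β cells, the highest folds belonged to Efnb3, an ephrin ligand, and to Rbp4. Efnb3 stood at 204, 248 and 185 CPM in δ cells and was 6.09 higher on the log2 scale (SE 0.34, adjusted p = 8.5e-13). Rbp4 was 6.06 higher than in β cells (SE 0.32, adjusted p = 3.3e-13). Against α cells Rbp4 was 2.06 higher (SE 0.28, adjusted p = 8.4e-06) and against PP cells 2.06 higher (SE 0.32, adjusted p = 8.1e-05), and those types held 67.6 to 261 CPM.

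**Figure D2:**
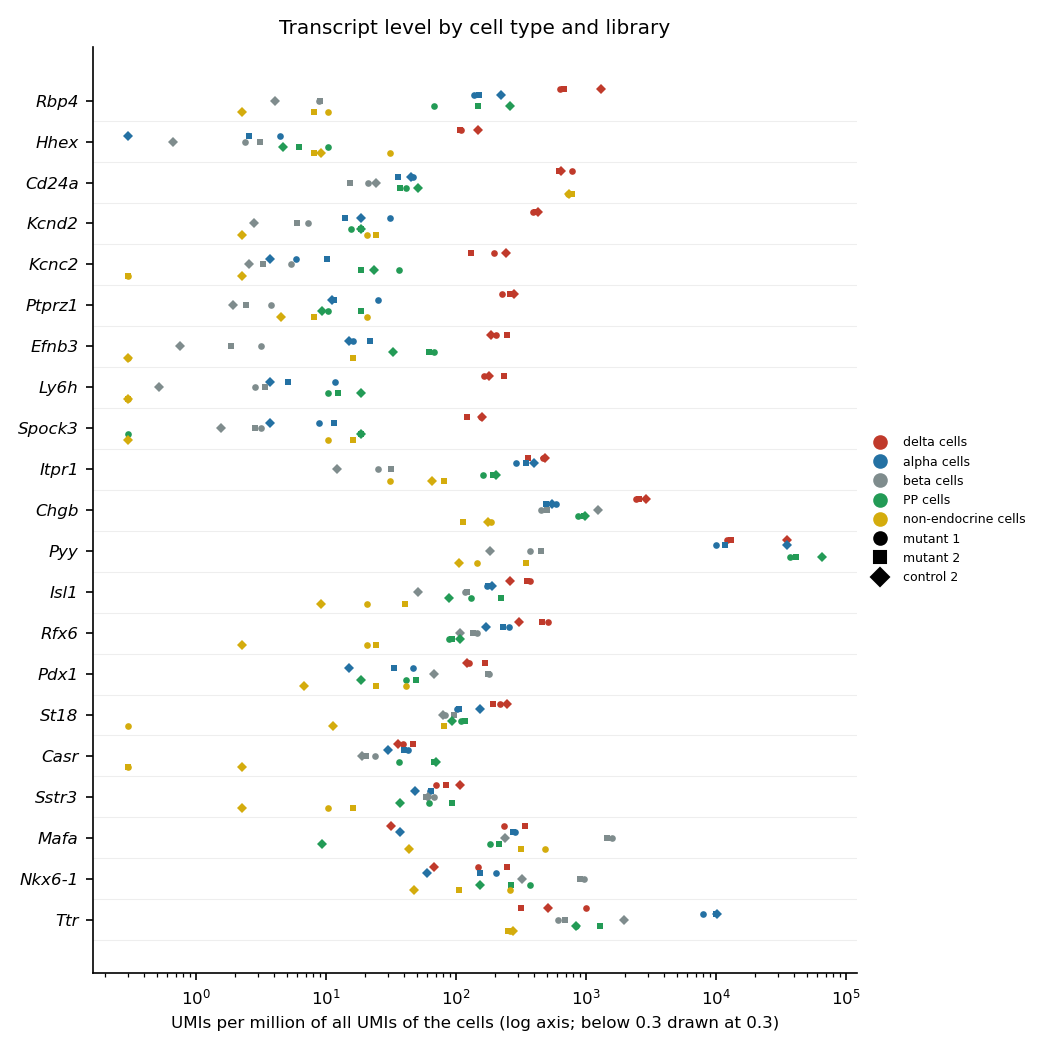
CPM of all UMIs (log axis, values below 0.3 drawn at 0.3) for 21 genes in the δ, α, β, PP and non-endocrine cells, with 1 point per library and type. Kcnd2, Ptprz1 and Hhex are high in δ cells of all 3 libraries, Cd24a is as high in non-endocrine cells, and Casr overlaps between endocrine types.

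Of 25 transcription factors listed, 19 were tested, and 5 were higher and 3 lower in δ cells than in the mean of the other types, beside 7.77% and 5.66% of all genes, with a median log2 fold of 0.16 beside -0.02 over all genes tested. Hhex was 4.80 higher (SE 0.48, adjusted p = 4.7e-08). Rfx6, a regulator of islet development, stood at 511, 462 and 307 CPM in δ cells and was 1.05 higher (SE 0.16, adjusted p = 3.1e-05). This call and that against PP cells were kept when any one library was left out. Against β cells the Rfx6 call was lost without mutant 1 (0.67, adjusted p = 0.051) or mutant 2 (0.68, adjusted p = 0.077). Against α cells it was lost without mutant 1 (0.62, adjusted p = 0.15) or mutant 2 (0.60, adjusted p = 0.24). Isl1, a LIM-homeodomain factor shared by islet types, was 0.78 higher than the mean (SE 0.18, adjusted p = 0.0035), and this call was lost without mutant 1 (0.70, adjusted p = 0.056). Against α cells alone Isl1 did not pass (0.59, adjusted p = 0.065).

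Pdx1, a homeodomain factor shared by δ and β cells, stood at 126, 168 and 122 CPM in δ cells. It was 1.88 higher than in α cells (SE 0.28, adjusted p = 2.2e-05). Against β cells it was lower (-0.82, SE 0.21, adjusted p = 0.0044), a call lost without mutant 1 (-0.61, adjusted p = 0.12) or mutant 2 (-0.75, adjusted p = 0.11), and its sign turned with all UMIs as library size (0.11). Against the mean it was 0.92 higher (SE 0.23, adjusted p = 0.0069), and that call was lost without mutant 2 (0.94, adjusted p = 0.10) or control 2 (0.67, adjusted p = 0.078). Nkx2-2, a homeodomain factor of islet cells, was lower than the mean (-1.06, SE 0.16, adjusted p = 3.6e-05). Nkx6-1, a β cell factor, was lower than in β cells (-3.09, SE 0.21, adjusted p = 1.9e-11). Mafa, a β cell activator of the insulin gene, was lower than in β cells as well (-3.38, SE 0.20, adjusted p = 1.7e-12). In δ cells Mafa stood at 236, 341 and 31.6 CPM, and in non-endocrine cells at 487, 315 and 43.3. Etv1, an ETS factor, was 1.75 higher than in β cells (SE 0.19, adjusted p = 1.4e-07) and lower than in α cells (-0.75, SE 0.19, adjusted p = 0.0072), the latter a call lost without mutant 2 (-0.74, adjusted p = 0.094).

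Myt3 itself was detected in δ cells. St18 stood at 220.0, 191 and 249 CPM in the δ cells of mutant 1, mutant 2 and control 2, from 28, 41 and 55 UMIs. It stood at 102, 107 and 153 in α cells, at 109, 118 and 93.2 in PP cells and at 81.8, 97.4 and 79.8 in β cells. Each δ value was above the α, β and PP values of its own library on this scale. Relative to the shift of all genes, St18 was 0.56 higher in δ cells than in the mean of the other types (SE 0.17, adjusted p = 0.027) and 0.61 higher than in α cells (SE 0.20, adjusted p = 0.040). The differences of 0.40 against β cells (SE 0.18, adjusted p = 0.11) and of 0.69 against PP cells (SE 0.23, adjusted p = 0.069) did not pass. Both calls were lost when any one library was left out. Against the mean, the values were 0.51, adjusted p = 0.22 without mutant 1, 0.66, adjusted p = 0.12 without mutant 2 and 0.48, adjusted p = 0.14 without control 2. Against α cells they were 0.50, adjusted p = 0.34, then 0.63, adjusted p = 0.24 and 0.62, adjusted p = 0.052 in the same order. UMI counts per gene do not show the insertion, so these levels do not check the labels. The paralog Myt1 stood at 70.7, 42.0 and 63.3 CPM in δ cells and Myt1l at 196, 205 and 203.

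Peptides of the secretory granule formed a mixed group. Of 15 secreted peptides and granins listed, 10 were tested, with 3 higher and 2 lower than the mean of the other types, beside 7.77% and 5.66% of all genes. Pyy, the peptide YY precursor, stood at 12138, 13113 and 35002 CPM in δ cells. It was 4.67 higher than in β cells (SE 0.34, adjusted p = 9.6e-11) and lower than in PP cells (-1.71, SE 0.30, adjusted p = 3.2e-04), and against α cells it did not pass (-0.17, SE 0.29, adjusted p = 0.80). Chgb, a granin, stood at 2412, 2559 and 2888 in δ cells and was 1.35 higher than the mean (SE 0.17, adjusted p = 2.2e-06). Chga, the related granin, was lower (-0.79, SE 0.12, adjusted p = 2.8e-05), so these granins differed in opposite directions relative to the median gene. Iapp, the amylin precursor of β and δ cells, stood at 40076, 36798 and 20742 CPM in δ cells and at 24444, 17452 and 7286 in non-endocrine cells. It was lower than in β cells (-1.97, SE 0.13, adjusted p = 2.2e-11). Of the 8 genes of prohormone processing, 3 were lower than the mean, and 1 of these, Cpe, a carboxypeptidase, kept its call when any one library was left out (-0.69, SE 0.11, adjusted p = 4.7e-05). Over the 3 libraries Cpe stood at 2709 CPM of all UMIs in δ, 2690 in β, 2673 in PP and 3784 in α cells. Its fold against the mean is relative to the shift of all genes. Pcsk2, a prohormone convertase, stood at 3418, 3021 and 3268 in δ cells and gave -0.11 (SE 0.11, adjusted p = 0.58). Pcsk1, the other convertase, was lower than in β cells (-2.24, SE 0.24, adjusted p = 7.3e-08).

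Of the 24 ion channels listed, 16 were tested, and 5 were higher and 1 lower than the mean of the other types, with a median of 0.17, beside 7.77% and 5.66% of all genes and their median of -0.02. Itpr1, an inositol trisphosphate receptor, stood at 471, 359.6 and 484 CPM in δ cells and was 1.44 higher (SE 0.20, adjusted p = 9.7e-06). The difference lay mainly against β cells (3.39), while Itpr1 did not pass against α cells (0.07, adjusted p = 0.91), and against PP cells (0.87, adjusted p = 0.049) its call was lost without mutant 1 (adjusted p = 0.29) or mutant 2 (adjusted p = 0.13). Scn9a, a voltage-gated sodium channel, was 1.31 higher (SE 0.18, adjusted p = 6.3e-06). Abcc8, the sulfonylurea receptor of the ATP-sensitive potassium channel, stood at 1037, 1060 and 1238 and was 0.59 higher (SE 0.11, adjusted p = 3.4e-04), while its partner Kcnj11, at 118, 93.4 and 76.8, gave 0.03 (SE 0.25, adjusted p = 0.96). The Abcc8 call against β cells was lost without mutant 1 (0.51, adjusted p = 0.082) or mutant 2 (0.59, adjusted p = 0.058). That against PP cells was lost without mutant 1 (0.55, adjusted p = 0.19) or mutant 2 (0.48, adjusted p = 0.31). Its calls against α cells and the mean were kept when any one library was left out. Cacna1a, a P/Q-type calcium channel, was 0.73 higher (SE 0.14, adjusted p = 5.9e-04) but did not pass against β cells alone (0.40, adjusted p = 0.068). The lower member was Gria3, an AMPA receptor subunit (-1.43, SE 0.43, adjusted p = 0.025), whose call was lost without mutant 2 (-0.89, adjusted p = 0.32). Gria2, a second AMPA subunit, gave 1.28 against β cells (SE 0.24, adjusted p = 2.1e-04) and -1.89 against α cells (SE 0.22, adjusted p = 1.1e-06).

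Of 26 receptors listed, 13 were tested, with 2 higher and 4 lower than the mean of the other types, beside 7.77% and 5.66% of all genes. Ffar4, a receptor for long-chain fatty acids, stood at 126, 117 and 36.2 CPM in δ cells and at 0, 0 and 0 in non-endocrine cells. It was 1.85 higher than the mean (SE 0.33, adjusted p = 2.6e-04) and 4.06 higher than in β cells (SE 0.39, adjusted p = 1.4e-08). Against α cells (0.89, adjusted p = 0.13) and PP cells (0.59, adjusted p = 0.49) Ffar4 did not pass, and over the 3 libraries it stood at 87.1 CPM in δ, 49.9 in α, 49.3 in PP and 1.73 in β cells. Ffar1, the other fatty acid receptor of islets, was lower than in β cells (-3.67, SE 0.46, adjusted p = 8.5e-07), with 0, 14.0 and 9.04 CPM in δ cells. Adora1, the adenosine A1 receptor, was 2.22 higher than the mean (SE 0.52, adjusted p = 0.0043), a call lost without mutant 2 (2.16, adjusted p = 0.076), and did not pass against β cells alone (0.47, adjusted p = 0.46). Against β cells, 7 of the 13 receptors were lower in δ cells, beside 14.1% of all genes. Among them was Glp1r, the receptor of glucagon-like peptide (-1.82, SE 0.19, adjusted p = 3.5e-08), which stood at 220.0, 187 and 127 CPM in δ cells and at 186, 145 and 38.7 in non-endocrine cells. Another was Chrm3, the muscarinic receptor (-2.07, SE 0.26, adjusted p = 1.0e-06).

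The machinery of exocytosis held 0 higher and 3 lower members of 15 tested against the mean by the edgeR test, beside 7.77% and 5.66% of all genes. Cplx2 (0.35, adjusted p = 0.061) and Rab27a (0.50, adjusted p = 0.065) were above 0 at an unadjusted p under 0.05 but did not pass, and DESeq2 called 1 member, Cplx2, higher. Cadps, a priming factor of dense-core granules, stood at 31.4, 98.1 and 58.8 CPM in δ cells against 133 to 464 in the other endocrine sums, and was lower (-2.54, SE 0.24, adjusted p = 2.5e-08). Slc30a8, the granule zinc transporter, was lower (-1.92, SE 0.25, adjusted p = 2.6e-06). The third, Syt7, a calcium sensor, was lower (-0.45, SE 0.13, adjusted p = 0.019) and lost its call without mutant 1 (-0.44, adjusted p = 0.19) or mutant 2 (-0.46, adjusted p = 0.21). The sign of Syt7 turned with all UMIs as library size (0.083). Of the genes of cAMP and calcium signalling, 12 of 15 were tested, with 3 higher and 1 lower than the mean. Pde10a, a phosphodiesterase, was 0.90 higher (SE 0.14, adjusted p = 2.8e-05) and was the member that kept its call when any one library was left out, although it did not pass against β cells alone (0.23, adjusted p = 0.27). Gnas, the stimulatory G protein, stood at 2184, 2228 and 3232 in δ cells and was 1.37 higher than in β cells (SE 0.13, adjusted p = 1.7e-08). Of the genes of glucose uptake and metabolism, 5 of 13 were tested and 2 were lower. Gpd2, of the glycerol phosphate shuttle, was 1 of them (-1.40, SE 0.35, adjusted p = 0.0065). The other was G6pc2, a glucose-6-phosphatase, which stood at 126, 196 and 172 CPM in δ cells and at 155, 178 and 114 in non-endocrine cells and lost its call without mutant 1 (-0.72, adjusted p = 0.060).

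**Figure D3:**
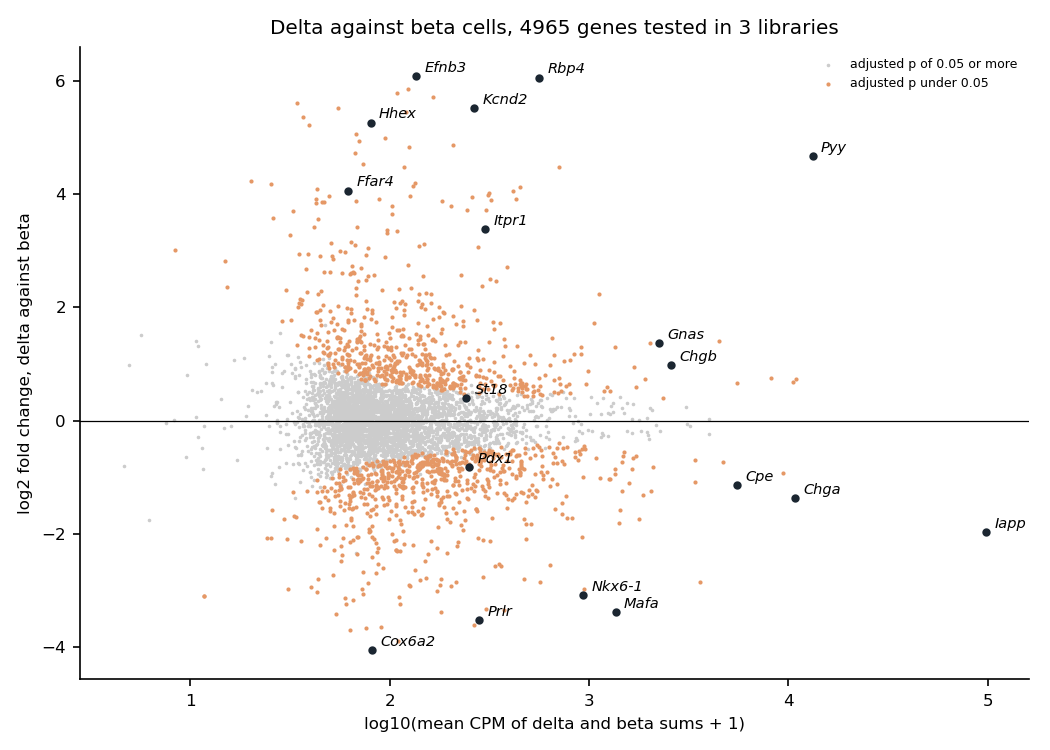
Log2 fold change of δ against β cells over the log10 mean CPM for the 4965 genes tested, each point a gene, with the genes that passed the test in a second colour. Efnb3 and Rbp4 lie at the top (6.09 and 6.06), Mafa and Nkx6-1 far below 0 (-3.38 and -3.09), and St18 at 0.40.

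Genes lower in δ cells included the markers of the other types. Of the 6 β cell markers tested, 6 were lower than in β cells, beside 14.1% of all genes, and of 4 α cell markers tested, 4 were lower than in α cells, beside 7.65%. Ttr, a transthyretin abundant in α cells, stood at 1006, 318 and 515 CPM in δ cells and at 7980 to 10221 in α cells (-4.30, SE 0.36, adjusted p = 6.7e-09). Rhou, a small GTPase, gave 1 UMI in δ cells and 89 in α cells, which held 32.7 times the δ level, per UMI without the rule genes, with a 95% counting interval of 5.71 to 1304. Prlr, the prolactin receptor, was lower than in β cells (-3.52, SE 0.26, adjusted p = 1.4e-10).

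Stress genes, ribosomal proteins and the respiratory chain moved with the choice of comparison and of libraries. Of 18 stress genes, 16 were tested, with 1 higher and 5 lower than the mean of the other types, beside 7.77% and 5.66% of all genes, and 0 of these 6 kept their call through each of the 3 leave-outs. One was Ddit3, a stress transcription factor (-1.21, SE 0.35, adjusted p = 0.021), with -0.85, adjusted p = 0.23 without mutant 1 and -1.06, adjusted p = 0.11 without control 2. Of 83 cytosolic ribosomal proteins tested, 16 were higher and 1 lower than in β cells, beside 12.9% and 14.1% of all genes. Against α cells 48 were lower, with a median of -0.56, beside 7.65% of all genes. Of these 48, 21 were called without mutant 1, 9 without mutant 2 and 41 without control 2. Of the 17 called against β cells, 4, 0 and 15 were called in the same order. Of 71 genes of the respiratory chain, 14 were lower than in β cells, beside 14.1% of all genes, of which 9, 5 and 13 were called in the same order. Values of ribosomal protein genes are uncertain where near-identical copies share reads, which was not tested.

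Markers of other cells were sparse in the δ sums. The 7 stellate markers gave 3, 3 and 0 UMIs in mutant 1, mutant 2 and control 2, the 7 endothelial markers 12, 23 and 15, led by Cdh5, and the 5 proliferation genes 0, 0 and 1. The 6 acinar markers gave 13, 14 and 49, led by Cela1, and the 4 duct markers 41, 81 and 97, of which 36, 72 and 81 were Krt18. The 7 leukocyte markers gave 30, 48 and 20 UMIs, of which 25, 36 and 19 were C1qa, and 4, 2 and 5 of the 7 were at 0. In the non-endocrine cells Cd74, and not C1qa, led the same list. C1qa, a complement component, was 1.05 higher in δ cells than in the mean of the other endocrine types (SE 0.27, adjusted p = 0.0080), a call lost without mutant 1 (0.88, adjusted p = 0.093) or mutant 2 (0.99, adjusted p = 0.096), and its value turned to -0.18 under the stricter cell rule of 10% Sst and under 10% insulin. Cela1, an elastase, was 2.06 higher (SE 0.46, adjusted p = 0.0024) but did not pass against PP cells alone (0.53, adjusted p = 0.67). The part of other cells in the comparisons above was not tested.

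Shares of cells with a transcript were compared at 1000 UMIs per cell, which left out 25 δ cells of mutant 1 and 1 of mutant 2. Rbp4 had a UMI in 36.5%, 55.1% and 65.9% of δ cells of mutant 1, mutant 2 and control 2, against 0.837%, 0.496% and 0.427% of β cells and 13.8%, 12.2% and 24.4% of α cells. Hhex had a UMI in 11.1%, 11.5% and 17.1% of δ cells and in 0.359%, 0.331% and 0.107% of β cells. Kcnd2 had one in 33.3%, 26.9% and 43.9% of δ cells and 2.86%, 2.04% and 1.54% of non-endocrine cells. For Rbp4 the non-endocrine shares were 2.86%, 2.04% and 0%, so Rbp4 and Kcnd2 lay above that background in δ cells. Cd24a had a UMI in 58.7%, 53.8% and 43.9% of δ cells and in 45.7%, 42.9% and 35.4% of non-endocrine cells.

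The δ share of kept cells was 2.99% in mutant 1 (95% exact binomial interval 2.41 to 3.67%), 3.87% in mutant 2 (3.08 to 4.80%) and 1.80% in control 2 (1.29 to 2.43%). The interval of control 2 lay below that of mutant 2 and met the lower end of that of mutant 1. The order depended on the Sst limit and on the cells counted. With Sst of at least 5%, the shares were 0.884%, 1.76% and 1.62%. Among δ, α and PP cells alone, δ cells made up 17.8%, 21.0% and 38.3%, with control 2 now the highest. Control 2 held 41 α cells against 336 and 254 in the mutant libraries. The intervals cover counting error only, and the genotypes were not tested against each other, as a single control library was read.

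**Figure D4:**
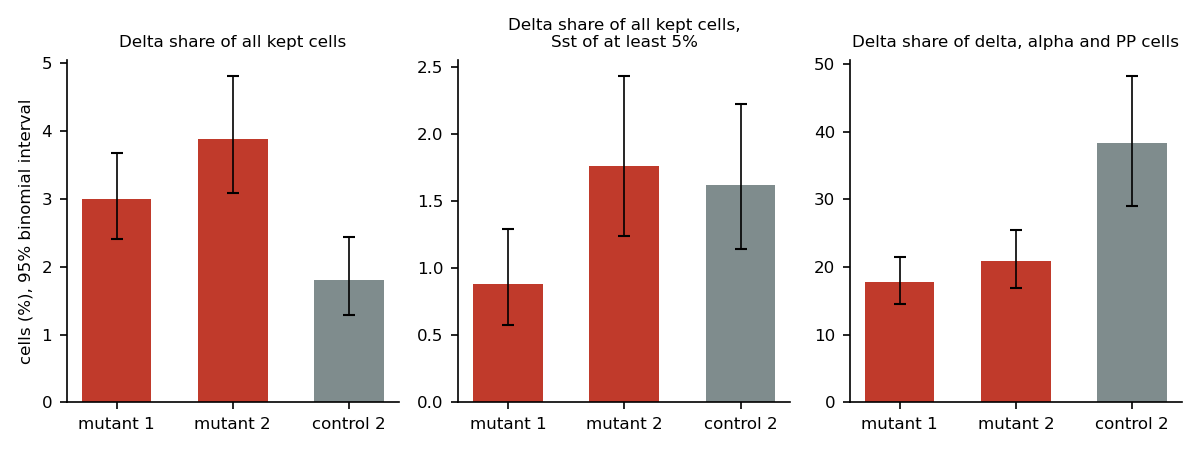
The δ share of cells in each library (%, with 95% exact binomial intervals) among all kept cells, among all kept cells with an Sst limit of 5%, and among δ, α and PP cells. Control 2 is the lowest in the first panel (1.80%) and the highest in the last (38.3%).

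The comparison of genotypes asks whether δ cells of the mutant libraries differ from those of control 2 in expression. It is a description by size. Of 4258 genes whose δ sums averaged at least 50 CPM (TMM-scaled, without the rule genes), 195 (4.58%) were lower and 241 (5.66%) higher in both mutant libraries by over 1 on the log2 scale, and the median gap between the mutant libraries was 0.35. This balance depended on the cells used. It turned to 291 lower and 149 higher at Sst of at least 5% and to 1199 lower and 65 higher under the stricter cell rule. With cells thinned to 1000 UMIs it moved the opposite way, to 209 lower and 632 higher. The same counts were 505 and 199 of 3809 genes in β cells, 149 and 267 of 3836 in α cells, 184 and 275 of 3815 in PP cells and 288 and 172 of 4188 in non-endocrine cells. Both mutant ratios share control 2, so a value particular to that library appears in both. Fewer transcripts per δ cell and other δ cells passing the Sst limit cannot be told apart here.

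Sst, which chose the cells, stood at 47170, 53124 and 100910 CPM in mutant 1, mutant 2 and control 2, where 20, 12 and 3 δ cells held 2 to 3% Sst. Nothing is read from this order. Rbp4 gave log2 ratios of -1.18 and -0.97 in mutant 1 and mutant 2. In the 26, 36 and 37 cells over 5% Sst alone, Rbp4 stood at 1218, 812 and 1358 CPM of all UMIs. The mean ratio of Rbp4 in those cells was -0.81 on the TMM scale without the rule genes, where the medians of all genes were -0.27 and -0.09. Pyy, peptide YY, gave -1.69 and -1.47, and over 5% Sst it stood at 13609, 17566 and 36869 CPM. In α cells the Pyy ratios were -1.73 and -1.57 and in PP cells, where its mean TMM-scaled level without the rule genes was 67264 CPM beside 23953 in δ cells, -1.14 and -1.06. Ppy moved with Pyy in δ cells, with the 4942, 5436 and 19923 CPM and the 1, 3 and 15 cells over 2% given above, and its part in the Pyy ratios was not tested. Scg2, a granin, gave -1.32 and -0.82, and in β cells -2.14 and -1.78. Iapp gave 0.79 and 0.78 and in non-endocrine cells 1.70 and 1.19, and its mean δ ratio turned to -0.49 when δ cells needed 10% Sst and under 10% insulin. Of the 10 secreted peptides and granins that passed the minimum, 7 were lower and 3 higher in both mutant libraries, where 39.4% of all 4258 genes were lower in both and 37.3% higher in both. By over 1, 1 of the 10 was lower and 1 higher, beside 4.58% and 5.66% of all genes.

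Of the genes named above for their fold in δ cells, Cd24a gave 0.13 and -0.10, Kcnd2 -0.27 and -0.08, Ptprz1 -0.45 and -0.15 and Efnb3 -0.02 and 0.36. Ly6h gave -0.28 and 0.31, Kcnc2 -0.46 and -0.92, Spock3 -0.16 and -0.42 and Bmp3, from 8, 20 and 10 UMIs, 0.29 and 0.92. Hhex, from 14, 23 and 33 UMIs, gave -0.57 and -0.50. St18 gave -0.33 and -0.42 in δ cells and -0.47 and -0.24 in β cells, with neither δ ratio past 1. The mean δ ratio of St18 turned to 0.15 with Sst of at least 5%. Gpm6a, a neuronal membrane glycoprotein that was 5.78 higher in δ than in β cells (SE 0.38, adjusted p = 1.3e-11), gave 1.25 and 1.06. Ffar4 gave 1.51 and 1.51, and 2.41 and 2.38 in β cells.

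Mafa had the highest pair of ratios under the rule for named genes, with 2.56 and 3.18 in δ cells and 2.21 and 2.06 in β cells. Its δ and non-endocrine levels, given above, were of the same order in each library. The others were Rhoc, a small GTPase (2.96 and 2.34), Nqo1, a quinone reductase (2.29 and 2.02), Zzz3 (2.30 and 2.02, with a mean that turned to -0.33 under the stricter cell rule) and Sfi1 (2.27 and 1.99). The lowest were the ribosomal protein genes Rpl39 (-2.91 and -2.95), Rps18 (-2.80 and -2.72), Rpl35a (-2.55 and -2.57) and Rpl7a (-3.78 and -2.52) and the mitochondrial gene mt-Co2 (-2.60 and -2.54). Of 80 cytosolic ribosomal proteins, 65 were lower and 11 higher in both mutant libraries, where 39.4% and 37.3% of all genes were, and 29 were lower by over 1, beside 4.58% of all genes. The 80 had medians of -0.93 and -0.85, and in β cells the medians were -1.50 and -1.40. The respiratory chain gave medians of -0.47 and -0.35 over 64 genes. Cplx2, a complexin of exocytosis, gave 1.62 and 1.66 in δ cells and 1.46 and 1.29 in β cells. Dnajb1, a chaperone, gave 1.45 and 1.36 in δ cells and 3.14 and 3.01 in β cells.

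**Figure D5:**
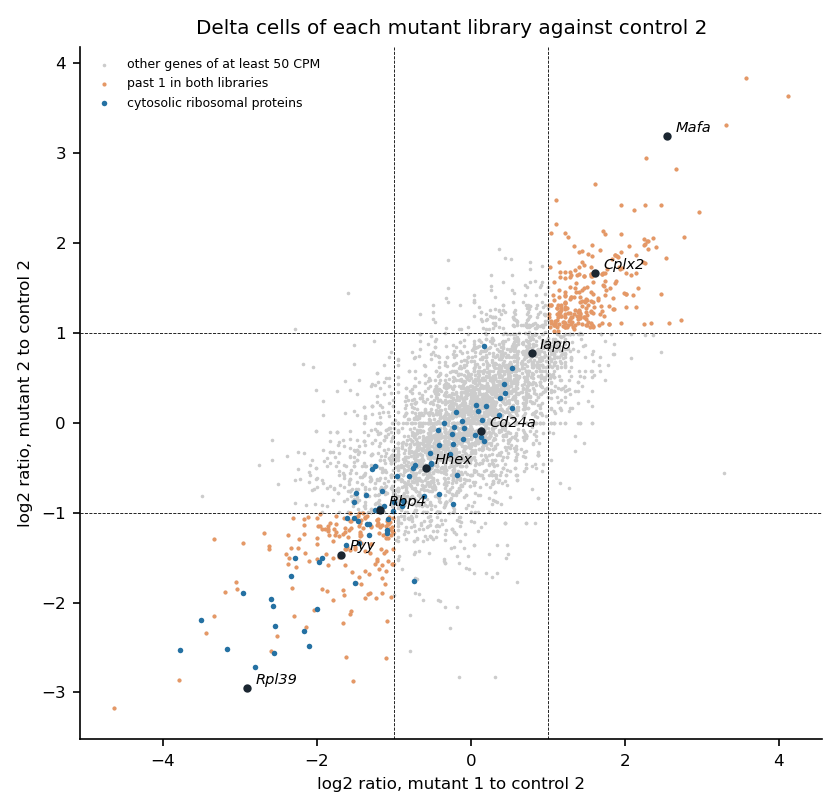
Each point is a gene of at least 50 CPM in δ cells, with the log2 ratio of mutant 1 to control 2 on the x axis and that of mutant 2 to control 2 on the y axis, and ribosomal protein genes in blue. Both axes share control 2, and the ribosomal protein genes lie mostly below 0, with medians of -0.93 and -0.85.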

How the data were processed

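Single islet cells of Myt3IM/IM and control mice were sequenced in droplets. The methods of the study, which give InDrop-Seq, name DropEst for the count matrices. Each deposited value is a raw UMI count of a gene in a cell. The submitters' processing notes name GRCm39 and Seurat, and the aligner is not given in the sources used here. The matrices of mutant 1, mutant 2 and control 2 held 8448466, 9013499 and 36985253 UMIs. The barcode list of control 1 was used to look for shared barcodes.

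Cells of at least 500 UMIs, at least 100 genes and at most 10% mitochondrial UMIs were kept, which left 2940, 2040 and 2283 of 3023, 2045 and 2308 barcodes. No doublet caller was run, and δ cells of over 10% insulin were left out as an alternative. β cells had Sst, Gcg and Ppy under 2% each. Non-endocrine cells, used as the background level, had at least 4 detected endothelial, stellate or leukocyte markers and little hormone transcript.

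The 12 sums of 4 cell types in 3 libraries were fitted with edgeR 4.0.16 in R 4.3.3 (TMM, filterByExpr, 6 residual degrees of freedom, two-sided, adjusted p threshold 0.05). The library block pairs cell types of the same islets. Mutant ratios were log2 ratios of CPM with TMM scaling and a prior count of 1. Named genes are those of the gene lists, the 10 highest and 10 lowest called genes of each comparison with a mean of at least 50 CPM and 1 direction in the 3 libraries, and the 5 highest and 5 lowest mutant ratios at a mean of at least 100 CPM, and the text gives part of them. The members and the gene lists were chosen with earlier results of these data known. Intervals are exact binomial or Poisson at 95%, and cover counting error only. Alternatives were DESeq2 1.42.0, other scalings, filters, depths and cell rules, no block, and each library left out. The fit was tested on simulated data. Gene positions come from GENCODE (GRCm38), not the build of the notes. Python 3.11.15 was used for the remaining steps. Some genes are not reported here.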

Additional observations from a re-analysis of the deposited data

Results flagged for a closer look

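For 11 of 63 genes named in the text that averaged at least 50 CPM in δ cells, both mutant libraries lay on the same side of control 2 in δ cells and on the opposite side in β cells, by any amount (17.5%, beside 14.6% of all 4258 genes). These differences between cell types were not tested. Pyy had a mean log2 ratio of -1.58 in δ cells, with -1.69 and -1.47 in mutant 1 and mutant 2, and 0.50 and 0.78 in β cells. Its level in β cells was 371, 455 and 184 CPM and in non-endocrine cells 145, 347 and 105. Rbp4 had a mean ratio of -1.08 in δ cells and 0.61 and 0.61 in β cells, where it stood at 8.85, 8.96 and 4.05 CPM, beside 10.4, 8.08 and 2.28 in non-endocrine cells. In the cells over 5% Sst, Rbp4 stood at 1218, 812 and 1358 CPM of all UMIs, with a mean TMM-scaled ratio without the rule genes of -0.81. Hhex had a mean ratio of -0.54 in δ cells and 1.25 and 1.62 in β cells, from 15, 22 and 23 UMIs in β cells. C1qa had a mean ratio of 0.94 in δ cells and -0.70 and -0.82 in β cells, and in non-endocrine cells it stood at 922, 1656 and 412 CPM. Rfx6 had a mean ratio of 0.55 in δ cells, with -0.07 and -0.19 in β cells. Bmp3 had 0.60 in δ cells, with -2.11 and -1.61 in β cells at a mean of 5.19 CPM. Spock3 had -0.29 in δ cells, with 0.49 and 0.33 in β cells at a mean of 4.82 CPM. Itpr1 had -0.33, with 0.54 and 0.86 in β cells. Kcnd2 had -0.18, with 0.86 and 0.57 in β cells at a mean of 10.1 CPM. Myt1l had -0.12, with 0.48 and 0.18 in β cells. Rab27a had 0.08, with -0.07 and -0.03 in β cells.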

How the results depend on the processing

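No paired analysis was possible because control 1 was analysed here for barcodes alone, which leaves the groups with the number 2 alone in common. The tests between cell types use the library as a block. Without the block, the 1338, 754, 439 and 667 genes called against β, α, PP cells and their mean became 601, 320, 136 and 301, each of them also called with the block. With cells thinned to 1000 UMIs, where 1573 genes were tested, they became 487, 285, 128 and 241. With the stricter cell rule (hormone at least 10% and insulin under 10%), which leaves 3 and 4 δ cells in the mutant libraries, they became 436, 308, 182 and 223. With all UMIs as library size, chosen after seeing the data, they were 3422 against β cells and 1851 against the mean. Leaving out 1 library gave 794 to 1672, 356 to 945, 183 to 520 and 347 to 780, with 5142 to 7227 genes tested. DESeq2, no filter, the rule genes kept, a looser cell rule, and the fit of only the types compared stayed within 1.5 times of these counts, as did Sst of at least 5% and insulin under 10%, both chosen after seeing the data. These are totals. With no filter, 25224 genes were tested and 657 were higher and 1322 lower against β cells, 33.2% higher beside 47.8%.

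Among named genes, signs turned for Rps18 against PP cells with thinning (0.055), for Rfx6 against β (-0.050) and α cells (-0.13) and C1qa against β cells (-0.26) and the mean (-0.18) under the stricter rule, and for Pdx1 against β cells (0.11) and Syt7 against the mean (0.083) with all UMIs as library size. Of the mutant ratios, Zzz3 (-0.33) and Iapp (-0.49) turned under the stricter rule, St18 (0.15) with Sst of at least 5% and Myt1 gave -0.58 without mutant 1 and 0.00036 without mutant 2. The cause was not tested.

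The counts of lower and higher genes in the mutant libraries, 195 and 241, became 122 and 117 with a prior count of 5, 408 and 444 at a minimum of 20 CPM, 54 and 45 at 200 CPM, 1199 and 65 under the stricter rule and 656 and 718 at a ratio threshold of 0.5. With thinning they were 209 and 632, and with Sst of at least 5%, 291 and 149. Leaving out 1 mutant library gave 343 to 555 lower and 392 to 452 higher, but only 1 ratio then had to pass. Those counts could not fall, so they do not measure dependence on a library. The share lower, among those called, was 44.7%, and it was 34.7% with CPM of all UMIs, 24.9% with thinning and 66.1% with Sst of at least 5%.

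The δ shares of 2.99%, 3.87% and 1.80% became 0.102%, 0.196% and 0.788% under the stricter rule, and 3.74% in mutant 1 under the looser one. Of endocrine cells they were 3.88% and 4.86% in the mutant libraries, with Sst of at least 5% 0.884% and 1.76%, and of δ, α and PP cells 17.8%, 21.0% and 38.3%. At 500 UMIs, Rbp4 was found in 21.6%, 30.4% and 41.5% of δ cells and Hhex in 1.27% in mutant 2. The 14 to 33 Hhex UMIs a library limit its ratios.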
